A study of Mus musculus with 4 samples.

Results

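Mitochondrial biogenesis regulators are the coactivators and transcription factors that set how much of the mitochondrial proteome a cell makes from its nuclear genome. The members described here are 8 genes, taken by symbol from the 49997 genes of the count tables: the coactivators Ppargc1a, Ppargc1b and Pprc1, and the DNA-binding factors Nrf1, Gabpa with its partner subunit Gabpb1, Esrra and Yy1. All 8 passed the filter on low counts. They were read in 4 poly(A) RNA libraries from C57BL/6J mouse explants of the AGM (aorta, gonad and mesonephros), the embryonic site where definitive blood stem cells arise. All explants were kept for 48 hours on a filter at the gas-liquid interface in MyeloCult medium with hydrocortisone. Of these libraries, 2 were untreated and 2 came from explants kept with 5 µM CCCP, a protonophore that lets protons leak across the inner membrane of mitochondria and so removes their gradient, and the comparison asks how transcripts differ when mitochondrial activity is impaired. The labels name embryonic days 10.5 and 11.5 in one place and day 10.5 alone in another. They give the cells as c-kit positive or embryonic stem cells of the blood in some fields and as whole explants in the extraction protocol. No label says how many embryos stand behind a library or whether replicates came from separate cultures, so p-values measure only the spread between these libraries.

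The pathway is organised in layers. PGC-1 coactivators (PGC-1 alpha from Ppargc1a, PGC-1 beta from Ppargc1b and PRC from Pprc1) do not bind DNA themselves but dock on transcription factors and recruit the machinery that opens chromatin and starts transcription. Among the factors they work with, NRF1 (nuclear respiratory factor 1, not the stress factor NRF2 that Nfe2l2 encodes) and GABP bind promoters of respiratory chain subunits and of the factors that copy and transcribe mitochondrial DNA, ERR alpha, the product of Esrra, is an orphan nuclear receptor that drives genes of oxidative metabolism, and YY1 is a zinc finger factor that PGC-1 alpha can use as a platform. GABP is built of an ETS-domain subunit that contacts DNA (Gabpa) and a subunit with the activation domain (Gabpb1 or its relative Gabpb2). PGC-1 alpha is known for its induction by cold, fasting and exercise in brown fat, liver and muscle, whereas PRC is known as a growth-responsive coactivator of dividing cells.

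Promoter sequence was available for 7 of the 8 members, at 9 start sites (RefSeq, GRCm38.p6, the assembly of mm10). The entry not matched is Ppargc1b. The stretches shown belong to Gabpa and Ppargc1a, the members for which both CCCP libraries lay below both untreated libraries, and to Gabpb1, where a promoter of one member holds the consensus of another. Gabpa lies head to head with Atp5j, which encodes a subunit of the mitochondrial ATP synthase. The RefSeq starts used here, at 84835124 for Gabpa and 84834976 for Atp5j on chromosome 16, are separated by 147 bases. In the annotation used for the counts both genes overlap across this stretch. There, exons of Gabpa begin at 84834891, beyond that start of Atp5j, and the pair shares 255 exon bases. Capitals mark a GABP core (CCGGAAG, here on the minus strand) and a YY1 core (AAGATGG, also on the minus strand) in the first sequence, a short CREB core (TGACG, on the minus strand of the promoter) in the second and the NRF1 consensus in the third.
Gabpa and Atp5j, chr16:84834977-84835123, plus strand: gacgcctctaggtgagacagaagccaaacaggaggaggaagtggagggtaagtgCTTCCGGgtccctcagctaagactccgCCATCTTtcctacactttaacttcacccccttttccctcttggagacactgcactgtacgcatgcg
Ppargc1a, chr5:51567726-51567975, minus strand: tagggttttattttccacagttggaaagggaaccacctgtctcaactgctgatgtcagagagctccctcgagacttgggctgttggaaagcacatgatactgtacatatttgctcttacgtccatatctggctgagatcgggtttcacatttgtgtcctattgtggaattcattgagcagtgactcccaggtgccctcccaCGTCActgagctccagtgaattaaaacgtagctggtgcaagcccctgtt
Gabpb1, chr2:126675788-126675817, minus strand: ccccgctgccGCGCAGGCGCcgggcgagcc
The GABP core of Gabpa began 93 bases upstream of its start and the YY1 core 66 bases upstream, and they did not overlap. The CREB core of Ppargc1a began 49 bases upstream, and the NRF1 consensus of Gabpb1 began 215 bases upstream of one of its starts. On either strand of the 250 bases upstream, the GABP core occurred in 6.91% of all 32851 promoters, the YY1 core in 4.49%, the NRF1 consensus in 3.74%, the CREB core in 17.8% and an ERR core (AAGGTCA) in 4.08%. A second start of Gabpb1 held a CREB core, and none of these motifs was found at the starts of Pprc1, Nrf1, Esrra or Yy1. Such matches describe letters and are not evidence of binding.

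The libraries held 37360968 to 48827826 counted reads, and the 8 members together took 0.0469% to 0.0547% of them. Blood markers were a small part of each library. Kit, the receptor that gives c-kit positive cells their name, stood at 47.6 to 63.2 CPM (library-scaled counts, in which each library is set to the same total after TMM normalisation) and Ptprc (CD45) at 3.39 to 6.85 CPM, while the neuronal tubulin Tubb3 reached 369 to 506 CPM and the muscle myosin Myh3 126 to 152 CPM. The values thus describe whole-explant RNA, in which fewer cells of a type and less RNA per cell cannot be told apart. The widest gap between the groups among the marker lists was that of liver cells. Their summed level over 9 genes was 1699.5 and 978 CPM untreated against 53.2 and 106 CPM under CCCP, with all 9 lower in both CCCP libraries, as were 24.8% of all genes, and none at 0. In edgeR 0 of the 9 passed, as did 0% of all genes, and in DESeq2 7 of the 9 passed as lower, as did 2.7% of all genes. Liver cells are one of the cell types in which PGC-1 alpha and ERR factors act, and the part of these cells in the values below was not tested. Summed levels of 8 blood markers were lower with CCCP, at 126 and 140 CPM against 159 and 169 CPM, without overlap. Of the 7 tested, 1 (Ptprc) was lower without overlap, against 24.8% of all genes, and 6 overlapped, Kit among them. All 7 had a log2 fold change below 0, as did 50.8% of all genes. Itga2b stood at 11.6 and 29.6 CPM with CCCP against 32.5 and 24.3 CPM. Gfi1, left out by the filter, was higher in both CCCP libraries. Summed levels of 6 neural and sympathoadrenal markers were higher with CCCP, at 826 and 777 CPM against 691 and 667 CPM, also without overlap. Most of the neural difference was Tubb3, at 506 and 480 CPM against 369 and 372 CPM, while Elavl4 was lower, at 88.8 and 88.0 CPM against 123 and 111 CPM. Of 19837 genes DESeq2 called 535 lower, among them Ptprc, and 59 higher, among them Sox10, a neural crest factor. In edgeR no gene of either list passed. Their part in the values below was not tested either. The other sums overlapped between groups and ran over 371 to 489 CPM for 6 endothelial markers, 230 to 327 CPM for 7 skeletal muscle markers, 124 to 188 CPM for 6 mesonephric tubule markers and 109 to 216 CPM for the 5 erythroid markers found in the files. Of the genes in these lists DESeq2 called 1, the skeletal muscle actin gene Acta1, as higher. It called 2.99% of all genes in either direction, and 59 of 19837 genes as higher. Acta1 stood at 68.3 and 71.4 CPM with CCCP against 37.5 and 34.8 CPM. Tnnt3, at 6.47 and 6.67 CPM against 5.39 and 5.08 CPM, was also higher in both CCCP libraries. So was Myl1, at 26.0 and 24.5 CPM against 23.9 and 18.6 CPM. These were 3 of the 6 muscle markers tested, against 24% of all genes, while Myod1, Myog and Myh3 overlapped between groups. In edgeR none of these genes passed, and the part of muscle cells in the values below was not tested.

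No member passed edgeR's quasi-likelihood test at an adjusted p under 0.05, and over all 19837 genes tested the share called was 0%. Adjusted p-values of the members ran from 0.276 to 0.975. DESeq2 also called 0 of the 8, where it called 2.99% of all genes, and edgeR without the filter called 0 of 8 and 3.43% of all genes. With the replicate number as a block, which no label describes as a pairing, 1 of 8 passed, Gabpa, against 10.7% of all genes. At an unadjusted p under 0.05 there was 1 member, Gabpa, lower in CCCP, against 9.16% of all genes in that direction. Both CCCP libraries lay below both untreated libraries for 2 of the 8 members, against 24.8% of all genes, and above them for 0 of 8, against 24% of all genes. Fitted values were above 0 for 3 members and below 0 for 5, against 49.2% and 50.8% of all genes. The members' median log2 fold change was -0.03, and that of all genes -0.01. The sign of that median turned when single libraries were left out, to 0.11 without untreated replicate 2 and 0.032 without CCCP replicate 1, and it was 0.14 with the length trend described below removed. The plot of members by library shows the value of every member in every library.

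**Figure D1:**
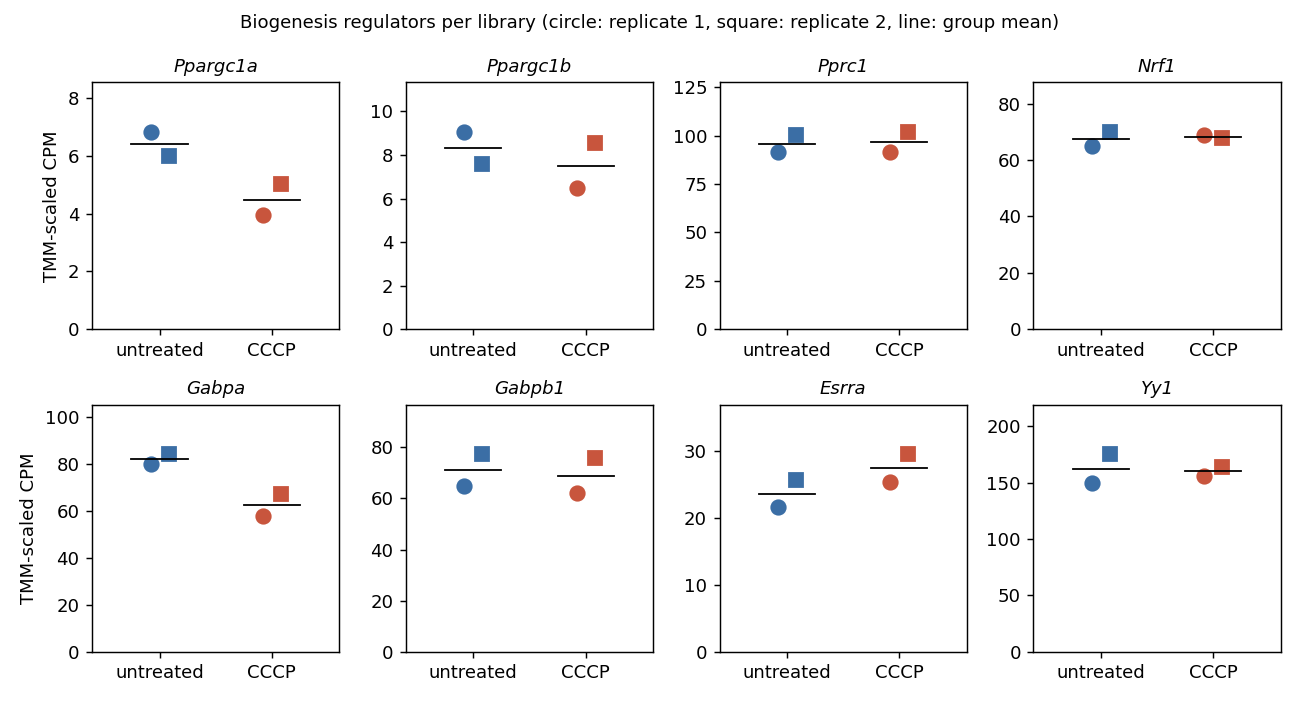
Level of each of the 8 regulators (y axis, TMM-scaled CPM from 0, own scale per gene) in the 2 untreated (blue) and 2 CCCP libraries (red), with circles for replicate 1, squares for replicate 2 and a line for the group mean. The groups are apart for Ppargc1a and Gabpa, both lower in CCCP, and overlap for the other 6.

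Among the coactivators, Ppargc1a had the fewest reads and the most negative fitted difference of all members. Ppargc1a (chromosome 5, 51454249 to 52115853, minus strand, mm10) was counted 342 and 224 times in the untreated libraries and 191 and 182 times in the CCCP libraries, or at 6.83 and 5.99 CPM against 3.94 and 5.02 CPM. Both CCCP libraries were thus the lower ones, and the gap between the nearest libraries of the groups was smaller than the gap between the CCCP libraries. The fitted log2 fold change was -0.52 (standard error 0.256, 95% interval -1.14 to 0.10), and the adjusted p-value in edgeR was 0.399. The interval therefore spans folds of 0.452 to 1.07.

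Ppargc1b (chromosome 18, 61291445 to 61400756, minus strand), which encodes PGC-1 beta, a coactivator with a role in basal mitochondrial content, had 9.07 and 7.57 CPM without treatment and 6.47 and 8.55 CPM with CCCP. Its highest and lowest libraries were both of replicate 1, in different groups, and the groups overlapped. The log2 fold change was -0.15 (standard error 0.245, edgeR adjusted p-value 0.798). Of its exon bases, 4.89% are shared with predicted genes on the other strand, which had at most 8 counts in any library.

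Pprc1 (chromosome 19, 46056526 to 46072909, plus strand), the gene of PRC, was the well counted coactivator, with 3700 to 4586 counts per library. It stood at 91.6 and 100.2 CPM untreated against 91.4 and 102.0 CPM under CCCP. Each group spanned almost the same values, and the difference between replicates exceeded that between groups. The log2 fold change was 0.01 with a 95% interval of -0.28 to 0.31 (edgeR adjusted p-value 0.975), so a fold outside 0.821 to 1.24 lies beyond that interval. Expressed per kilobase of exon, which allows levels of different genes to be set side by side, Pprc1 made up 90.9% and 92.8% of the summed level of the PGC-1 genes untreated against 93.8% and 92.9% under CCCP. Ppargc1a made up 3.60% and 2.94% of that sum without treatment and 2.14% and 2.42% with CCCP. With the length of the longest GENCODE coding transcript in place of the union of exons, the groups overlapped. The share of Pprc1 was then 83.2% and 86.4% untreated against 88.0% and 86.2% under CCCP. By either length, transcripts of Pprc1 made up most of the PGC-1 sum in every library.

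Gabpa carried the smallest p-value of the members. Gabpa (chromosome 16, 84834891 to 84863783, plus strand), the DNA-contacting subunit of GABP, was counted 3993 and 3142 times in the untreated libraries and 2794 and 2437 times in the CCCP libraries. With library scaling these are 79.8 and 84.0 CPM against 57.6 and 67.2 CPM, and the highest CCCP library lay below the lowest untreated one. Its fitted difference was -0.39 on the log2 scale (standard error 0.127, 95% interval -0.70 to -0.08). The interval excluded 0 for this gene taken alone (unadjusted p of 0.0205 in edgeR across all genes), but the p-value ranked 1474 among the genes tested and its adjusted value was 0.276. Leaving out 1 library gave values from -0.50 to -0.28, and removing the GC trend described below gave -0.10.

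Gabpb1 (chromosome 2, 126628907 to 126684435, minus strand), whose product carries the activation domain of GABP, overlapped between the groups. It had 64.9 and 77.4 CPM untreated against 62.1 and 75.7 CPM under CCCP, so each group held a lower replicate 1 and a higher replicate 2. Its log2 fold change was -0.05 (95% interval -0.42 to 0.33, edgeR adjusted p-value 0.908). The other beta subunit gene, Gabpb2, had 98.0 and 95.5 CPM without treatment and 75.2 and 83.7 CPM with CCCP, and a log2 fold change of -0.28 (edgeR adjusted p-value 0.342). Both CCCP libraries were the lower ones for Gabpb2, as for Gabpa.

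The ratio of Gabpa to Gabpb1 within a library does not depend on library scaling. In counts it was 1.23 and 1.09 untreated against 0.927 and 0.888 under CCCP, with means of 1.16 ± 0.101 and 0.907 ± 0.0277 (SD, n = 2). The groups did not overlap, but no test of the ratio is given, since the smallest p that exact permutation of 2 libraries against 2 allows is 0.333 (two-sided). Per kilobase the ratio was 3.67, 3.24, 2.77 and 2.65 in the same order with the exon lengths of the files. With GENCODE transcript lengths it was 1.02, 0.904, 0.772 and 0.739, so which subunit has more transcripts depends on the gene model. The ratio is not corrected for the GC and length trends described below. The log2 fold changes of Gabpa and Gabpb1, -0.39 and -0.05, were -0.10 and 0.06 with the GC trend removed. With the length trend removed they were -0.31 and 0.29.

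Atp5j, the head-to-head neighbour of Gabpa whose start borders the shared promoter sequence printed above, had its values the other way round. It stood at 61.4 and 71.4 CPM untreated against 85.9 and 77.7 CPM under CCCP, where every CCCP value exceeded every untreated one. Its log2 fold change was 0.30 (standard error 0.131, edgeR adjusted p-value 0.358). The pair shares 255 exon bases, 4.91% of those of Gabpa, on opposite strands, and reads in them were counted for neither gene. The difference between both genes was not tested.

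**Figure D2:**
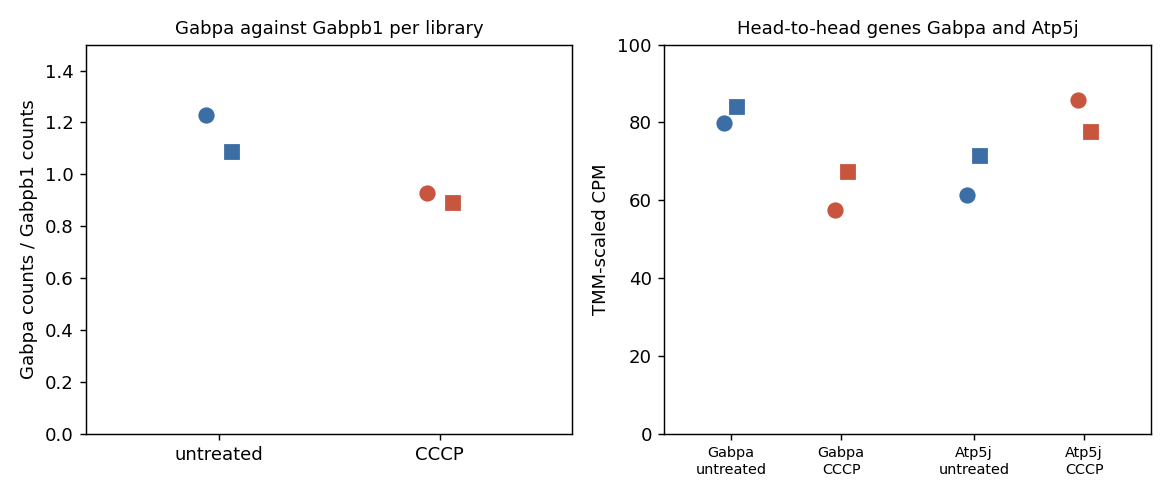
Left, counts of Gabpa divided by counts of Gabpb1 in each library (y axis, ratio from 0). Right, TMM-scaled CPM of Gabpa and of its head-to-head neighbour Atp5j (blue untreated, red CCCP, circle replicate 1, square replicate 2). The ratio is 1.23 and 1.09 without treatment and 0.927 and 0.888 with CCCP, and the 2 genes lie apart between groups in opposite directions.

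Nrf1 (chromosome 6, 30047985 to 30153458, plus strand), the factor named for the respiratory genes it binds, was the steadiest member by its fitted error. It had 65.0 and 70.03 CPM untreated against 68.8 and 67.8 CPM under CCCP. The CCCP values lay inside the range of the untreated ones. Its log2 fold change was 0.02 (standard error 0.112, 95% interval -0.26 to 0.29, edgeR adjusted p-value 0.958).

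Yy1 (chromosome 12, 108792945 to 108820148, plus strand), a zinc finger factor that can activate or repress, had the most counts of the members, 5948 to 7575 per library. It stood at 149 and 175 CPM without treatment and at 156 and 164 CPM with CCCP, again inside the untreated range. Its log2 fold change was -0.02 with a 95% interval of -0.33 to 0.29 (edgeR adjusted p-value 0.954).

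Esrra (chromosome 19, 6910977 to 6922048, minus strand), the gene of ERR alpha, was the only member with a fitted value above 0.1 in the positive direction. It had 21.6 and 25.6 CPM untreated against 25.3 and 29.5 CPM under CCCP, so replicate 2 was higher in each group and CCCP replicate 1 lay just below untreated replicate 2. Its log2 fold change was 0.22 with a 95% interval of -0.18 to 0.62 (edgeR adjusted p-value 0.559), and 0.11 to 0.38 with 1 library left out. Exons of Esrra overlap those of Trmt112 on the other strand and of a microRNA gene, together 5.54% of its exon bases.

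**Figure D3:**
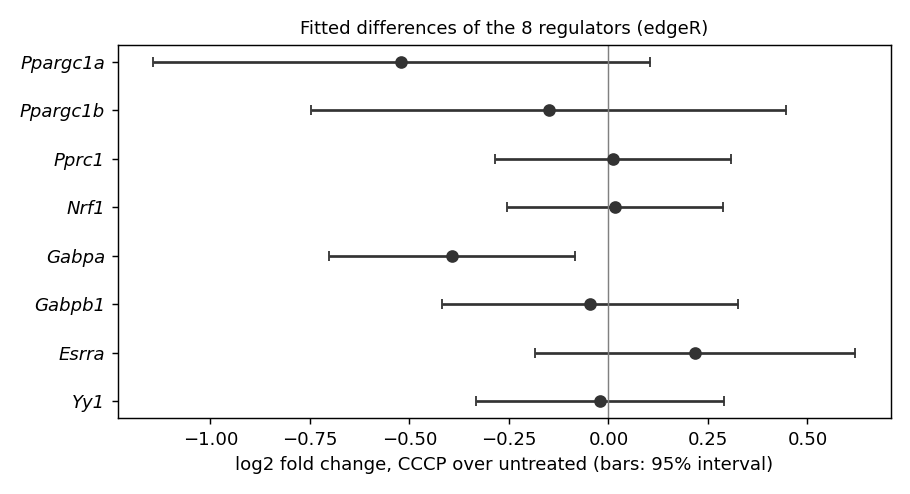
Fitted log2 fold change of each regulator, CCCP over untreated (x axis), from edgeR on 2 libraries per group, with bars for the 95% interval before any adjustment over genes. The interval of Gabpa lies below 0, from -0.70 to -0.08, and those of the other 7 include 0.

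Levels were ordered per kilobase of exon. In the untreated libraries Yy1 was highest, at 25.6 ± 2.88 CPM per kilobase (SD, n = 2), followed by Gabpa at 15.8 ± 0.579, Pprc1 at 14.6 ± 0.919, Esrra at 9.14 ± 1.11, Nrf1 at 4.61 ± 0.241, Gabpb1 at 4.59 ± 0.569, Ppargc1b at 0.767 ± 0.0979 and Ppargc1a at 0.516 ± 0.0479. Nrf1 and Gabpb1 did not differ beyond their spread. With CCCP the order was the same except that Pprc1, at 14.7 ± 1.14, stood above Gabpa, at 12.02 ± 1.31. Among the genes tested, the mean level of Yy1 over all libraries lay at the 87th percentile, that of Ppargc1b at the 28th and that of Ppargc1a at the 22.1st. The union of exons is long for Nrf1 and Gabpb1, at 14638 and 15492 bases, against 3584 and 4153 bases in the longest GENCODE coding transcript. By those lengths the untreated level of Nrf1, 18.8 CPM per kilobase, stood next to that of Yy1, and Gabpa, Esrra, Nrf1 and Gabpb1 changed place in the untreated order, with Pprc1 added in the CCCP order. Yy1 stayed highest, and Ppargc1b and Ppargc1a lowest, by either length.

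Fold changes in these libraries went with gene length and base composition, and several members sit at the ends of these scales. Over all genes tested, the log2 fold change had a Spearman correlation of -0.35 with exon length and 0.39 with GC content, a description across genes that share the same 4 libraries. Gabpa and Ppargc1a, the members that were lower in both CCCP libraries, have the lowest GC content of the 8, at 41.4% and 41.7%. Genes in that lowest GC decile had a median log2 fold change of -0.40. With the GC trend removed from each library, Gabpa stood at -0.10 (edgeR adjusted p-value 0.771) and Ppargc1a at -0.24 (0.743). Ppargc1a is also in the longest decile, whose median was -0.35, and stood at -0.21 with the length trend removed, while Gabpa stood at -0.31. Esrra, with the highest GC content at 61.8%, stood at 0.03 with the GC trend removed. Nrf1 and Gabpb1, also in the longest decile, stood at 0.34 and 0.29 with the length trend removed, on the long exon unions given above. The part of length and GC content in the members' values beyond these fits was not tested.

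**Figure D4:**
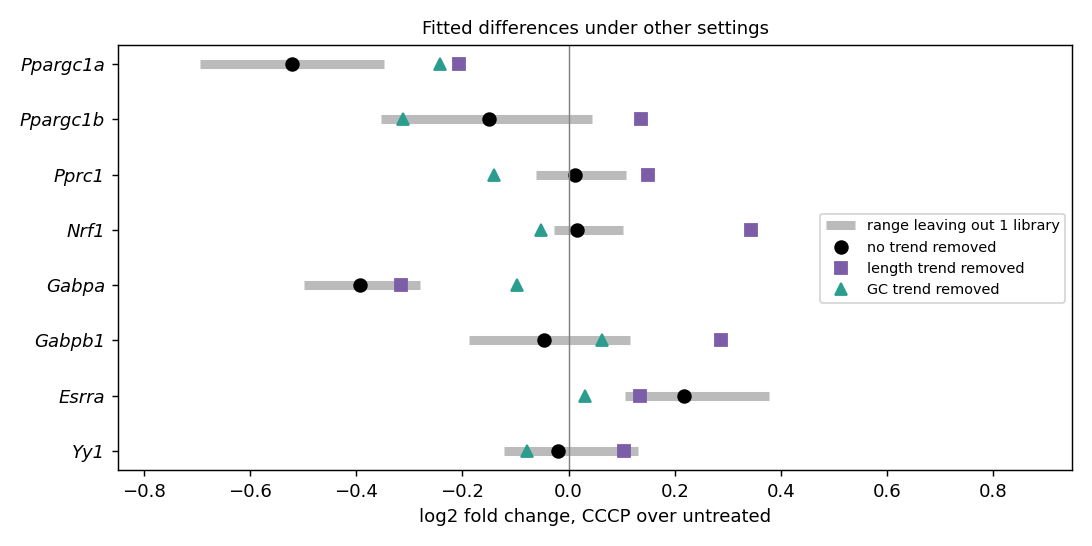
Log2 fold change of each regulator (x axis, CCCP over untreated) with no trend removed (black circle), with the length trend removed (purple square) and with the GC trend removed (green triangle), and the range over fits that leave out 1 library (grey bar). Gabpa moves from -0.39 to -0.10 with the GC trend removed, and only Ppargc1a, Gabpa and Esrra keep 1 sign over all of these settings.

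Partners and relatives of the members were read as a list of 10 genes, all tested. In edgeR 0 passed in either direction, and at an unadjusted p under 0.05 there were 2 lower and 0 higher in CCCP, against 9.16% and 5.45% of all genes. The smallest p-value among the lower ones was that of Esrrg, an orphan receptor of the ERR family with a role in oxidative tissues, at 18.9 and 15.3 CPM without treatment and 8.98 and 8.60 CPM with CCCP. Both CCCP libraries were well below the untreated ones, with a log2 fold change of -0.96 (standard error 0.195). Its adjusted p-value was 0.175 in edgeR and 0.00406 in DESeq2. It also passed in edgeR without the filter and in the 3 fits with the replicate block, so this call depends on the tool, the filter and the design. Gabpb2, given above, was next. Higher values with the smallest p-values were those of the nuclear receptors Ppard and Rxra, with log2 fold changes of 0.21 and 0.16 (edgeR adjusted p-values 0.471 and 0.544). The list's median log2 fold change was -0.09, and its sign turned to 0.26 without untreated replicate 1 and to 0.16 without CCCP replicate 2. It was -0.29 without untreated replicate 2, -0.31 without CCCP replicate 1, -0.21 with the GC trend removed and 0.036 with the length trend removed.

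Upstream regulators and modifiers, the kinases, deacetylases, acetyltransferases, activators and corepressors that act on PGC-1 alpha or its gene, were a list of 22, all tested. None passed in edgeR, 7 were lower and 0 higher at an unadjusted p under 0.05, and all genes tested gave 9.16% and 5.45%. The groups did not overlap for 9 lower and 4 higher members, against 24.8% and 24% of all genes. Mef2a, a muscle and vascular transcription factor that can bind the Ppargc1a promoter, had 108 and 97.3 CPM without treatment and 68.6 and 73.4 CPM with CCCP, a log2 fold change of -0.53. Its adjusted p-value was 0.195 in edgeR and 0.0378 in DESeq2, which called 2.7% of all genes lower in CCCP. Creb1, which encodes the cAMP-responsive factor that binds sites of the kind marked in the Ppargc1a promoter, had 122 and 126 CPM against 70.1 and 94.2 CPM, a log2 fold change of -0.59 (adjusted p-value 0.241 in edgeR and 0.0776 in DESeq2). Creb1 passed in edgeR without the filter and with the replicate block, as did Mef2a. The corepressor genes Nrip1 and Ncor1, named here outside the rule, were also lower in both CCCP libraries. Their log2 fold changes were -0.41 and -0.36 (edgeR adjusted p-values 0.311 and 0.301). In the other direction Zfp746, a repressor of Ppargc1a, stood at 0.27 and the arginine methyltransferase gene Prmt1 at 0.34 on the log2 scale (edgeR adjusted p-values 0.343 and 0.442). The median of the list was -0.12, and -0.02 with the length trend removed and -0.09 with the GC trend removed. It was -0.07 without either untreated library, -0.08 without CCCP replicate 1, -0.10 without CCCP replicate 2 and -0.18 with total counts alone.

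Targets of NRF1 and GABP, a list of 20 genes that includes subunits, import receptors, porins and mitochondrial transcription factors, had a median above 0. In edgeR 0 of 20 passed, 1 was higher and 0 lower at an unadjusted p under 0.05 (5.45% and 9.16% of all genes), and 15 had a log2 fold change above 0, as did 49.2% of all genes. For 12 of the 20 the groups did not overlap with CCCP higher, as for 24% of all genes, and for 2 with CCCP lower, as for 24.8%. The median log2 fold change was 0.21, against -0.01 over all genes. It was 0.13 with the length trend removed and 0.17 with the GC trend removed. Cox6a1, a subunit of cytochrome c oxidase, had 61.6 and 73.7 CPM without treatment and 92.8 and 91.2 CPM with CCCP, a log2 fold change of 0.44 (edgeR adjusted p-value 0.254). Cox4i1, another subunit of that complex, stood at 0.41 (edgeR adjusted p-value 0.373). Tomm70a, a receptor of the outer membrane import complex, and Tfb2m, a factor for transcription of mitochondrial DNA, had the smallest p-values below 0, at -0.16 and -0.17 (edgeR adjusted p-values 0.609 and 0.684). Tfam, the packaging factor of mitochondrial DNA and the best known shared target of NRF1 and GABP, named here outside the rule, had 56.3 and 78.7 CPM against 64.5 and 65.3 CPM, with the CCCP libraries inside the untreated range.

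Targets of ERR alpha and PGC-1 were a list of 12, of which 10 were tested. Cpt1b and Ckmt2, enzymes of muscle and heart mitochondria, were left out by the filter, and Ckmt2 had reads in untreated replicate 2 alone. Of the 10, 0 passed in edgeR, 1 was higher and 0 lower at an unadjusted p under 0.05, against 5.45% and 9.16% of all genes. The groups did not overlap for 5 higher and 1 lower, against 24% and 24.8% of all genes. Fndc5, which encodes the precursor of irisin, had a log2 fold change of 0.33 (edgeR adjusted p-value 0.342), and Acadm, a fatty acid dehydrogenase, and Pdk4, an inhibitor of pyruvate entry, stood at -0.16 and -0.22 (edgeR adjusted p-values 0.560 and 0.800). The list's median was 0.15, and 0.25 without untreated replicate 2 and 0.24 without CCCP replicate 1. It was 0.13 without untreated replicate 1 and 0.14 without CCCP replicate 2. With total counts alone it was 0.09, with the length trend removed 0.12 and with the GC trend removed 0.18.

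**Figure D5:**
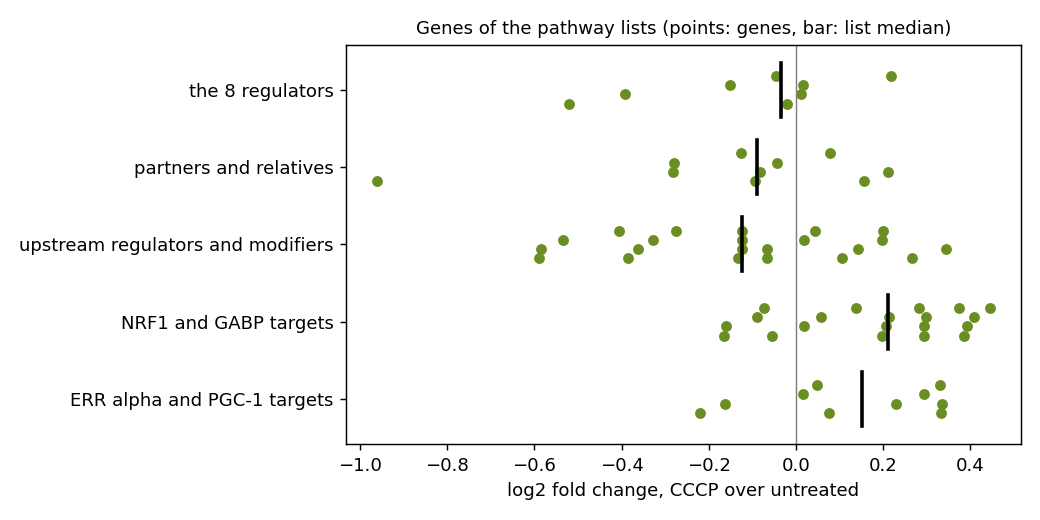
Log2 fold change (x axis, CCCP over untreated, edgeR) of every tested gene in 5 lists, 1 point per gene, with a bar at the list median. Medians are -0.03 for the 8 regulators, -0.09 for partners, -0.12 for upstream regulators, 0.21 for NRF1 and GABP targets and 0.15 for ERR alpha and PGC-1 targets.

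Over 10787 genes with a mean of at least 10 CPM, the genes whose centred log2 CPM over the 4 libraries lay nearest to that of Gabpa were Mier3, Fyttd1 and Bend4, at Euclidean distances of 0.0296, 0.0342 and 0.0358. Their log2 fold changes were -0.40, -0.36 and -0.43. These lie near that of Gabpa because the genes were picked for their likeness to it in these same libraries.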

How the data were processed

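Per the file headers, the authors deposited raw read counts per gene, made with featureCounts 2.0.3 over exons of the NCBI RefSeq annotation of mm10, with no strand option. Reads of a pair were counted singly, since no option to count fragments was set, and reads touching more than 1 gene were not counted. Per the submitters' processing notes, HISAT2, SAMtools, Subread and FastQC were used on mm10, with versions not given in the sources used here. Exon lengths, also deposited by the authors, are the union of all annotated exons. Groups and replicate numbers came from the sample titles. The header of untreated replicate 1 spells its column UM1, and its sample follows GEO's own assignment.

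The main test was edgeR 4.0.16 in R 4.3.3 (glmQLFit, glmQLFTest, two-sided) on the counts of all genes, with TMM scaling, filterByExpr (count minimum 10, total minimum 15) and no term beside the group. Benjamini-Hochberg adjustment ran over the 19837 genes tested, with a threshold of 0.05. A standard error is the log2 fold change divided by the square root of F, and the 95% interval uses the t distribution with the degrees of freedom of that test. Alternatives were DESeq2 1.42.0, other scaling, no filter, robust estimation, each library left out, a replicate block, and removal of each library's trend with exon length or with GC content (lowess, span 0.3). GC content came from GENCODE M21 transcripts matched by symbol, for 91.8% of the genes tested. The GC fits, the order of levels by GENCODE transcript length and the list medians under each alternative were added after the data were seen. The fit was tested on simulated counts. Within groups the libraries differed by more than counting noise (chi-square per degree of freedom 59.3 and 37.5), so no pair was treated as repeat deposits of 1 library. This does not show that replicates came from separate cultures.

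The members and lists were chosen with earlier results of these data known. The genes named are all 8 members, the 2 members of each list with the smallest unadjusted p in each direction, and the 3 genes nearest in pattern to the member with the smallest p. Tissue markers, neighbouring genes, Nrip1 and Ncor1, named beyond these, were chosen after their values were seen. Of these, 1 gene that this rule names among the targets of ERR alpha and PGC-1 is not reported here.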

Additional observations from a re-analysis of the deposited data

How the results depend on the processing

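With all genes tested, the count of genes passing was 0 under 5 alternatives with all libraries. It was 1107 without a filter, 594 in DESeq2, 2118 with the replicate block, 1125 with the replicate block and the length trend removed, 1030 with the replicate block and the GC trend removed, and 10 to 46 with 1 library left out. The cause was not tested. Among the 8 members, 0 passed under 13 of 14 alternatives. With the replicate block 1 passed, Gabpa, at -0.40 (edgeR adjusted p-value 0.0346, over a range of 0.0346 to 0.782 among its alternatives). Libraries with the same number deviated together (correlation 0.43 over genes), but what the numbers stand for is not in the labels, and with only 2 pairs they were not taken as a pairing. Depth went with the number too. Untreated and CCCP replicate 1 held 48216849 and 48827826 counted reads, and untreated and CCCP replicate 2 held 37360968 and 37579087. The part of depth in that correlation and in the block fits was not tested. Of 20 NRF1 and GABP targets, 4 passed with the replicate block, all higher in CCCP. Over all genes 2118 of 19837 (10.7%) passed in either direction, 754 of them higher. With that block after removal of the GC trend 4 passed, all higher, against 1030 of 19837 genes, 329 of them higher. Of 10 ERR alpha and PGC-1 targets, 1 passed as higher with that block after removal of the length trend. Over all genes 1125 of 19837 passed there, 485 of them higher. Of 32 partners and upstream regulators, 3 passed without a filter (1107 of 32261 genes), 2 in DESeq2 (594 of 19837) and 5 with the replicate block, all lower. Over all genes those fits called 890, 535 and 1364 lower. With that block after removal of the length trend 2 passed, Esrrg lower and Mtor higher. After removal of the GC trend 1 passed with the block, Esrrg, lower.

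Ppargc1a, Gabpa and Esrra kept their sign under all 14 alternatives, and the other 5 members did not. With the length trend removed, log2 fold changes of the other sign were 0.14 for Ppargc1b, 0.29 for Gabpb1 and 0.10 for Yy1, or 0.12, 0.30 and 0.11 with the block as well. With the GC trend removed they were -0.14 for Pprc1, -0.052 for Nrf1 and 0.062 for Gabpb1, or -0.14, -0.051 and 0.062 with the block. With total counts alone they were -0.046 for Pprc1 and -0.041 for Nrf1, where the median of all genes was -0.07. With 1 library left out, values ran from -0.35 to 0.044 for Ppargc1b, -0.061 to 0.11 for Pprc1, -0.027 to 0.10 for Nrf1, -0.19 to 0.12 for Gabpb1 and -0.12 to 0.13 for Yy1. By the exon lengths of the files, the mean share of Pprc1 in the PGC-1 sum stayed 0.538 to 2.40 percentage points higher in CCCP with 1 library left out. The per-kilobase ratio of Gabpa to Gabpb1 by those lengths differed by -0.959 to -0.532. By GENCODE transcript lengths the Pprc1 shares of the groups overlapped. By GENCODE transcript lengths 5 members changed place in the order of levels. With 3 libraries the lone one is assumed to vary like its counterpart group. Counts of 182 to 342 per library limit the precision of Ppargc1a.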
